A study of Mus musculus with 6 samples.

Results

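The Dlk1-Dio3 imprinted region genes are the 7 genes Dlk1, Meg3, Rtl1, Rian, Mirg, Dio3 and Mir337, which lie in 1 stretch of mouse chromosome 12. All rows of the deposited array table that carry one of these symbols were taken, 11 of the 34471 rows tested. A row is 1 transcript cluster, a set of probes read together as a log2 signal, and Meg3, Rtl1, Rian and Mirg have 2 rows each. The cells were BMEL hepatoblasts, an immortalized line of wild-type CD1 mouse liver progenitors taken at E12.5, in mid-gestation. They were plated on collagen and transfected with 500 ng of a microRNA mimic for 48 h. A miR-337-3p mimic was given to 3 samples and a negative control mimic to 3 others, and every other condition named in the labels is shared by both groups. The comparison asks which transcripts of the region differ in level once the mature product of one of its own microRNA genes is supplied from outside.

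Imprinted genes are read from 1 parental copy. In this region the protein genes Dlk1, Rtl1 and Dio3 are read from the paternal copy, and the noncoding RNA genes Meg3, Rian and Mirg, with the small RNAs embedded among them, from the maternal copy. DNA methylation laid down on the paternal copy at a control element between Dlk1 and Meg3 keeps the noncoding RNAs silent there. The zinc finger protein ZFP57 and its partner TRIM28 hold such methylation in place after fertilization. In fetal liver DLK1 is a surface protein by which hepatoblasts are isolated, and the noncoding RNAs and microRNAs of the region are abundant in embryonic tissues and decline after birth. Mir337 lies within Rtl1, on the strand opposite to it. The arrays do not tell parental copies apart.

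The mimic carries the sequence of 1 arm of the Mir337 hairpin, so both arms and the hairpin are shown first, from RefSeq on GRCm38.p6 and on the plus strand. Capitals mark the seed, bases 2 to 8, in each mature arm, and the 2 arms in the hairpin. The arm supplied as a mimic lies at chr12:109585850-109585871, its partner at chr12:109585818-109585839 and the hairpin at chr12:109585789-109585885.
mmu-miR-337-3p: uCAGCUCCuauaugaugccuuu
mmu-miR-337-5p: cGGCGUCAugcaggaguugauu
Mir337 hairpin: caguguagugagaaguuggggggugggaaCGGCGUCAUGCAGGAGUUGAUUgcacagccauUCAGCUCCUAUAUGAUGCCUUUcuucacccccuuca
The RefSeq table lists 113 mature microRNAs of 61 genes between Dlk1 and Dio3, and these hold 104 different seeds. The seed of miR-337-3p is carried by 1 of them, miR-337-3p itself, and by no other of the 1679 mature mouse microRNAs in the table. Whether a site for this seed is present in the transcripts of the members was not analysed here.

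Median log2 signals of the 6 arrays lay between 4.78 and 4.94 over the 34471 rows. Pearson correlations across rows, which are not independent replicates, were 0.985 to 0.989 within groups and 0.975 to 0.986 between them. Nothing in the labels says that the replicates came from separate cultures, and the p-values cover only the spread among these samples, possibly a technical one. No detection call is given, so 1482 rows of olfactory and vomeronasal receptor genes, which liver cells are not known to use, served as a stand-in for background. Their 95th percentile lay between 4.66 and 5.05 on the 6 arrays, and 44.5% of all rows exceeded it on every array. Of 17 hepatoblast markers, 16 exceeded it on every array, and the exception was Dlk1 itself. The same held for 2 of 10 mesenchymal markers (Col1a1 and Acta2), 0 of 6 endothelial markers and 2 of 6 blood markers (Cd68 and Csf1r). Col1a1 rose by 0.59 (adjusted p = 0.0417) and Cd68 by 1.18 (adjusted p = 0.0358) in limma, while Acta2 stood at -0.14 (adjusted p = 0.776) and Csf1r at -0.36 (adjusted p = 0.451). With 1 array left out, Col1a1 passed in 0 of 6 fits and Cd68 in 2, without control replicate 2 or mimic replicate 1 (adjusted p up to 0.128 and 0.125). The part of these markers in the results below was not tested. Over the mesenchymal list the mean log2 signal ran from 4.59 to 4.67 on control arrays and from 4.53 to 4.67 on mimic arrays. The same mean ran from 4.19 to 4.36 and from 4.18 to 4.41 for the endothelial list, and from 4.25 to 4.49 and from 4.43 to 4.61 for the blood list. In a bulk sample, more cells with a transcript and more of it per cell cannot be told apart.

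Rian and 1 of the 2 rows of Meg3, the long noncoding RNAs of the maternal copy, rose after miR-337-3p mimic. The call of that Meg3 row was lost whichever array was left out. Of the 6 fits without 1 array, Rian row 17278715 kept its call in 2 and Rian row 17550446 in 3. The rows of the paternally expressed protein genes did not pass the test in either direction. No row of those protein genes exceeded the receptor rows on every array, whereas the Meg3 row that rose and Rian row 17278715 did. A change in the protein genes could therefore have been missed. Of the 11 rows, 3 were higher and 0 were lower at an adjusted p under 0.05 by limma, with the Benjamini-Hochberg adjustment taken over all 34471 rows. Of all rows 3.1% passed, 1.6% higher and 1.5% lower. With the replicate number as a block the same 3 rows passed, all higher, where 7.82% of all rows passed, 4.19% higher and 3.64% lower. At an unadjusted limma p under 0.05 there were 3 member rows as well, all of them higher, where 14.4% of all rows passed in either direction. Of the 11 rows, 10 had a log2 difference above 0, with a median of 0.20, against 53.5% of all rows and a median over them of 0.02. The 7 rows of the 4 maternally expressed RNA genes, with 2 rows each for Meg3, Rian and Mirg, lay above 0, from 0.05 to 1.24. Of these, Mirg row 17278860 and the Mir337 row lay within the range of the receptor rows on every array. Among 50 rows of other microRNA genes between Dlk1 and Dio3, 31 lay above 0 and 19 below, with a median of 0.06. The 4 rows of the paternally expressed protein genes lay between -0.05 and 0.19. Mimic arrays lay wholly above control arrays in 3 of the 11 rows, against 10.7% of all rows.

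**Figure D1:**
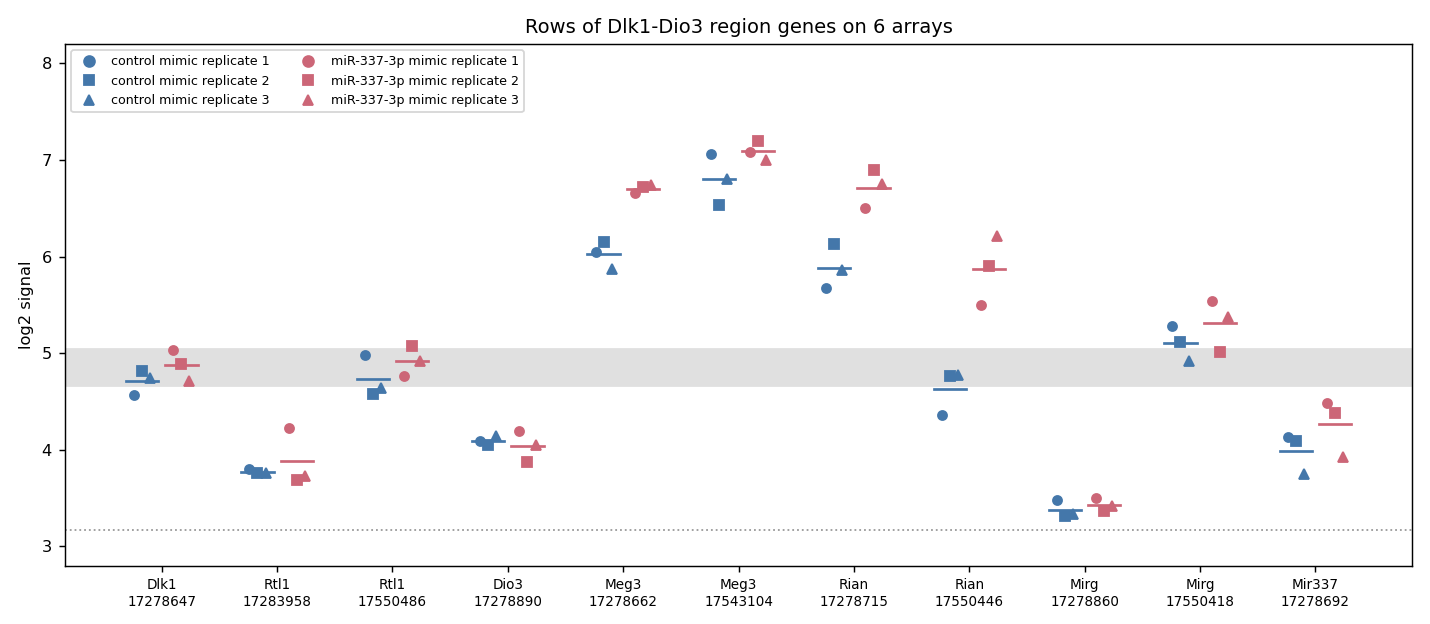
Log2 signal (y axis) of the 11 rows of the 7 region genes (x axis, with transcript cluster numbers), 3 control mimic arrays in blue and 3 miR-337-3p mimic arrays in red, with marker shape giving the replicate number and short lines the group means. The grey band spans the 95th percentile of receptor gene rows over the 6 arrays, 4.66 to 5.05, and the dotted line is the mean over arrays of their median. The groups separate in Meg3 row 17278662 and in both Rian rows.

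**Figure D2:**
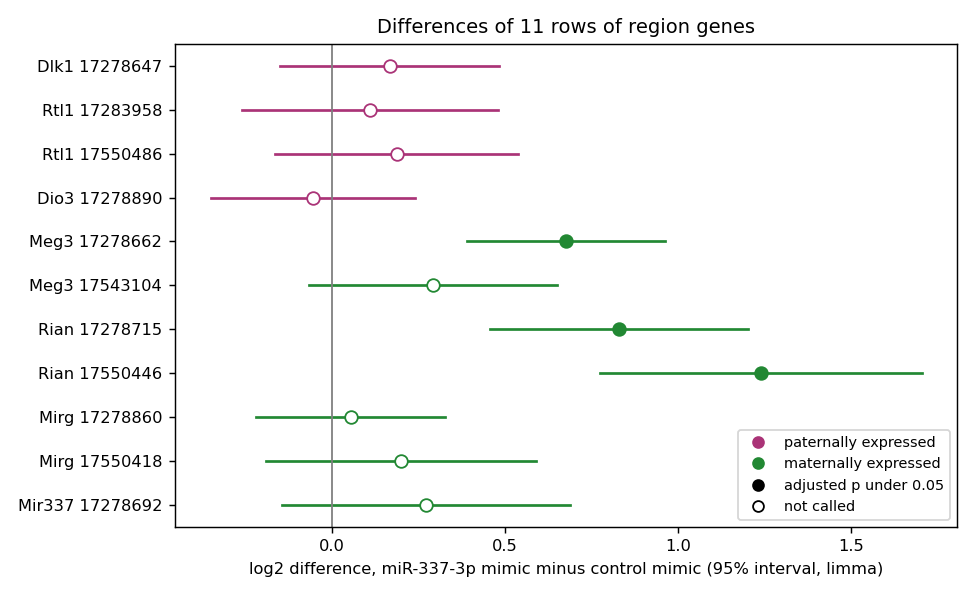
Log2 difference between miR-337-3p mimic and control mimic (x axis) for each of the 11 rows, with 95% intervals from limma. Filled points are rows with an adjusted p under 0.05, in green for maternally and in purple for paternally expressed genes, and the highest is Rian row 17550446 at 1.24, a row with 1 of 3 control arrays above the receptor rows.

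Meg3 is a long noncoding RNA that binds chromatin-modifying complexes and serves as the host transcript of a microRNA. Row 17278662, whose annotation adds the gene Mir770, read 6.05, 6.15 and 5.88 in control replicates 1 to 3 and 6.65, 6.72 and 6.74 in mimic replicates 1 to 3. Every mimic array exceeded every control array, with 0.50 between the highest control and the lowest mimic array. The group means were 6.03 ± 0.14 and 6.70 ± 0.04 (SD, 3 arrays per group), so that the mimic samples stood 0.68 higher on the log2 scale (SE 0.13), which is 1.60-fold (95% interval 1.31 to 1.95, adjusted p = 0.0295 in limma). In none of the 6 fits without 1 array did this row keep its call, with adjusted p from 0.0508 to 0.106 in limma and log2 differences from 0.60 to 0.74.

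Row 17543104 of Meg3, whose annotation adds Mir1906-1 and Mir1906-2, read 7.06, 6.54 and 6.80 in control and 7.09, 7.20 and 6.996 in mimic samples. Control replicate 1 lay among the mimic arrays, so the groups overlapped. The log2 difference was 0.29 (SE 0.16, 95% interval -0.07 to 0.65, adjusted p = 0.483 in limma), an interval that holds no change and reaches close to the difference of the first row. The difference between the rows was 0.38 on the log2 scale, with an exact permutation p of 0.3 (two-sided, 4 genes with 2 rows compared, adjusted p = 0.533), where 0.1 is the smallest value that 3 against 3 arrays can give. The test did not tell the Meg3 rows apart, and the change of the gene as a whole is uncertain.

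Meg3, Rian and Mirg lie in this order on 1 strand, and transcription from the Meg3 start is thought to run through them. The start windows that RefSeq gives for them, 300 bases each and mostly upstream of the start, are printed because Rian and 1 Meg3 row rose and Mirg passed no test. Letters were searched on both strands, and matches stand in capitals. They were TGACG for the core of the cyclic AMP response element and CCAAT for the box of that name. The GC box was searched as GGGCGG and the TATA box as TATAAA. The letters TGCCGC are the core that the protein ZFP57 binds. The windows are at chr12:109540746-109541045 for Meg3, chr12:109603695-109603994 for Rian and chr12:109734731-109735030 for Mirg, all on the plus strand of GRCm38.p6.
Meg3 start: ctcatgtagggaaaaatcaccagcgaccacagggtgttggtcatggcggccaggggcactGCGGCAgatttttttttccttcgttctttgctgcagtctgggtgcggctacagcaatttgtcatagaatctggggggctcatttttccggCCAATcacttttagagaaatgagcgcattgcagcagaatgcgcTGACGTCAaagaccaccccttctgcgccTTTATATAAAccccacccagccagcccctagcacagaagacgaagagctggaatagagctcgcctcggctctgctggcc
Rian start: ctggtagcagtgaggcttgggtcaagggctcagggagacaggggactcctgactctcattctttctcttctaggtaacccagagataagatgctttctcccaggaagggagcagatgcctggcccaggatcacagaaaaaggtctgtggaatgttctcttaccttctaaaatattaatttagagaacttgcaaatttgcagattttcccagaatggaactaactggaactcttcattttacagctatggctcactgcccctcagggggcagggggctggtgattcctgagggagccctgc
Mirg start: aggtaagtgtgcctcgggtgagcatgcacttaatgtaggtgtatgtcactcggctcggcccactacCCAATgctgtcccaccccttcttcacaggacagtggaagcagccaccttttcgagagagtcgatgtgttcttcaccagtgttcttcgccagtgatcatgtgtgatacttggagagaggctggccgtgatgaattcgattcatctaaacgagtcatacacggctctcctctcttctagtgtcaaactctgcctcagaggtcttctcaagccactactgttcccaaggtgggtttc
The Meg3 window held the TGACG letters on both strands, overlapping each other in 1 palindrome whose first base is at -57 from the start. It also held a CCAAT at -100, TATAAA matches that overlap on opposite strands, beginning at -29 and -25, and TGCCGC on the minus strand at -190. No searched letters were in the Rian window, and the Mirg window had 1 CCAAT at -184. Of 32851 mouse promoter windows of this length in the table, 20.8% held TGACG, 37.4% CCAAT, 35.7% GGGCGG, 13.6% TATAAA and 11.6% TGCCGC. A second annotated Meg3 start, at chr12:109545148-109545447, held none of these letters. The Dlk1 window had 1 TGACG, and the Dio3 window, with 69.0% G and C bases, had 4 GGGCGG, 2 CCAAT and 1 TATAAA. These matches describe the letters alone.

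Rian is a nuclear noncoding RNA that carries the box C/D small nucleolar RNAs of the region. Row 17278715 read 5.67, 6.13 and 5.86 in control replicates 1 to 3 and 6.50, 6.89 and 6.75 in mimic replicates 1 to 3. The groups did not overlap, with 0.38 between the highest control and the lowest mimic array. The means were 5.89 ± 0.23 and 6.71 ± 0.20 (SD, 3 arrays per group), which puts the mimic samples 0.83 higher on the log2 scale (SE 0.16), or 1.78-fold (95% interval 1.37 to 2.30, adjusted p = 0.0363 in limma).

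Row 17550446 of Rian read 4.36, 4.76 and 4.78 in control and 5.50, 5.90 and 6.21 in mimic samples. Of the 3 control arrays 1 lay above the 95th percentile of the receptor rows, and all 3 mimic arrays did. This was the widest gap among the members, 0.72 between the groups' nearest arrays. The means were 4.63 ± 0.24 and 5.87 ± 0.36 (SD, 3 arrays per group), which puts them 1.24 higher on the log2 scale (SE 0.20), or 2.36-fold (95% interval 1.71 to 3.26, adjusted p = 0.0192 in limma). Since most of its control arrays were at background, the size of this fold, and of its difference from the brighter row, is uncertain.

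Arrays of the same replicate number differed by 0.83, 0.76 and 0.89 in the brighter Rian row and by 1.14, 1.14 and 1.44 in the dimmer one, for numbers 1 to 3. The spread of these differences was smaller than that within either group. Between the rows, the difference of 0.41 had an exact permutation p of 0.1 (two-sided, adjusted p = 0.4), the smallest that the design allows. With 1 array left out the brighter row passed without control replicate 2 or mimic replicate 1 and missed the threshold in the other 4 fits (adjusted p up to 0.139 in limma). The dimmer row passed without control replicate 2, control replicate 3 or mimic replicate 1, and was lost without control replicate 1, mimic replicate 2 or mimic replicate 3 (up to 0.0813). Differences over these fits ran from 0.72 to 0.95 and from 1.07 to 1.43.

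Rows of small RNA genes whose annotation also names Rian had higher means in the mimic samples too, but none passed the test over all rows. There are 5 such rows, which fall outside the rule because their symbol is another gene, and their log2 differences ran from 0.32 to 1.10 with a median of 0.68. The small nucleolar RNA row AF357355 read 5.31, 6.65 and 6.11 in control and 6.45, 7.39 and 7.53 in mimic replicates 1 to 3. The lowest mimic array lay below the highest control array, yet each mimic array exceeded the control array of its own number. The row stood 1.10 higher in the mimic group (SE 0.37), with an adjusted limma p of 0.196, or 0.00762 when the replicate number entered as a block. AF357425 read 6.43, 7.39 and 6.33 in control and 7.22, 7.67 and 7.65 after the mimic, which is 0.80 higher (SE 0.28), with an adjusted limma p of 0.211, or 0.0490 under the block. DQ267100 stood 0.68 higher (SE 0.27, adjusted p = 0.293), and the predicted genes Gm23474 and Gm23508, whose signals did not exceed the receptor rows on every array, had 0.32 and 0.36. Without control replicate 2, which was the highest control array in both, AF357425 and DQ267100 passed (adjusted p = 0.0272 and 0.0464 in limma). Over these 5 rows, 14 of the 15 differences between arrays of 1 number were above 0, the exception being Gm23474 in number 1. The 15 differences come from the same 6 arrays, so they are not independent, and the labels do not state the pairing by number. The probes of the 5 rows may read the Rian transcript itself, so these rows are no independent measure of it.

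**Figure D3:**
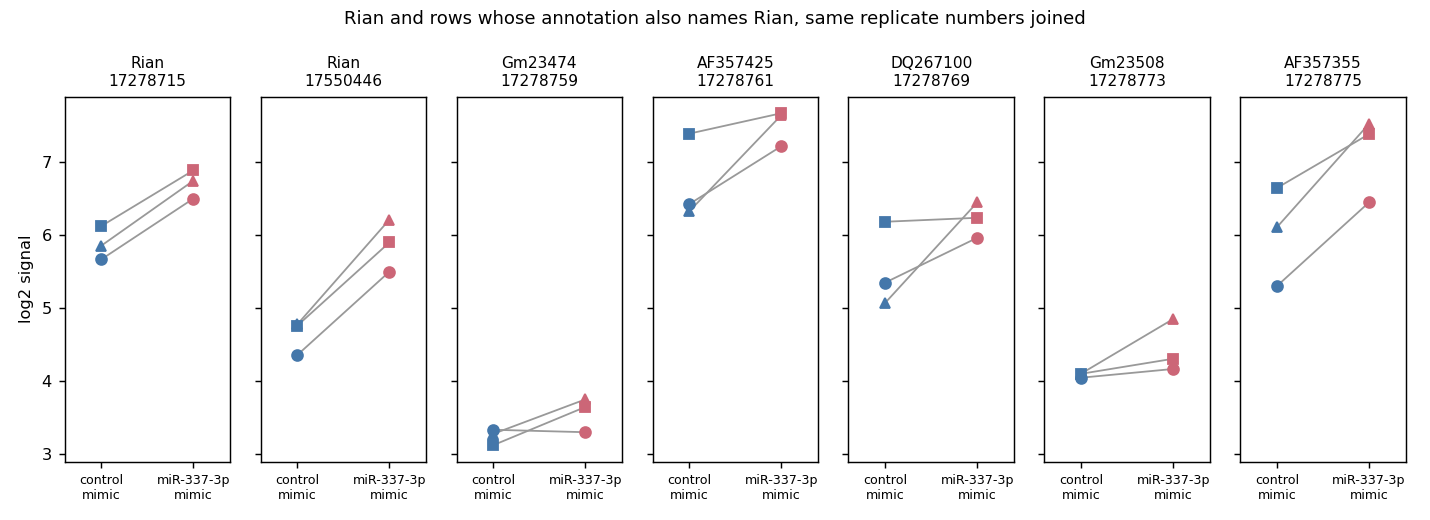
Log2 signal (y axis) of both Rian rows and of the 5 other rows whose annotation names Rian, in control mimic (blue) and miR-337-3p mimic (red) samples. Circles, squares and triangles are replicates 1, 2 and 3, joined within a number, and 1 of the lines falls, that of Gm23474 in number 1.

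Of the small nucleolar RNA genes fixed as a list, 5 of 8 were measured and all lay above 0, with a median of 0.70 against 0.02 over the 30942 genes with a row each. None passed in limma. With the block 2 rose, AF357355 and AF357425, where it called 4.5% of all genes higher and 3.72% lower. Both are among the rows above whose annotation also names Rian, so they are no separate result. AF357426, at 0.70 (SE 0.37, adjusted p = 0.464, or 0.0499 without mimic replicate 1), and AF357428, at 0.05, had signals within the range of the receptor rows. Over all 11 annotated small nucleolar RNA genes between Dlk1 and Dio3 that matched a row, 10 lay above 0, against 53.5% of all rows. The median of the 11 was 0.52, against 0.02 over all rows. At an unadjusted limma p under 0.05 there were 5 of these 11, against 14.4% of all rows.

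Mirg is the noncoding host of the microRNA cluster at the far end of the region. Row 17550418 read 5.29, 5.12 and 4.92 in control and 5.54, 5.01 and 5.38 in mimic samples, overlapping groups that differed by 0.20 (SE 0.17, 95% interval -0.19 to 0.59, adjusted p = 0.729 in limma). Row 17278860, whose annotation adds Mir410, Mir412 and Mir369, read 3.48, 3.31 and 3.33 against 3.50, 3.36 and 3.42, within the range of the receptor rows. Its difference was 0.05 (SE 0.12, adjusted p = 0.926). The interval of the brighter row leaves out a rise as large as the estimate of 0.83 for the brighter Rian row, though the difference between the genes was not tested. Of 3 microRNA rows whose annotation also names Mirg, those of Mir134, Mir485 and Mir377 had differences of -0.22, -0.03 and 0.11.

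Mir337 is the gene of the microRNA supplied. Its row 17278692 read 4.13, 4.09 and 3.75 in control replicates 1 to 3 and 4.49, 4.38 and 3.92 in mimic replicates 1 to 3. Mimic replicate 3 lay below control replicates 1 and 2, so the groups overlapped, and no array reached the 95th percentile of the receptor rows. Arrays of the same replicate number differed by 0.35, 0.29 and 0.17, above 0 in each. The log2 difference was 0.27 (SE 0.18, 95% interval -0.14 to 0.69), with an adjusted limma p of 0.614, or 0.205 under the block. The row is annotated to the gene, and the labels and files do not say whether its probes read a transfected duplex, so it does not check the dose.

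The other microRNA genes of the region showed no call. Of 62 microRNA symbols listed for the region, Mir337 included, 48 were measured, and 31 lay above 0 and 17 below, with a median of 0.07. In limma 0 passed, with and without the block. Of all genes 3.31% passed without it, and with it 4.5% were higher and 3.72% lower. At such shares few calls would be met among 48 genes, so their absence says little about this list. At an unadjusted p under 0.05 there was 1, against 15.0% of all genes. That gene, Mir432, which lies within the stretch antisense to Rtl1, read 5.70, 5.44 and 5.37 in control and 5.99, 5.80 and 5.91 in mimic samples, groups that did not overlap (log2 difference 0.40, SE 0.14, adjusted p = 0.205). Next by p came Mir299a at 0.23, Mir539 at -0.29 and Mir1193 at 0.26, each with an adjusted p of 0.527 or more. Only 11 of the 48 exceeded the receptor rows on every array, and the rest lay within the range of those rows on at least 1 array.

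**Figure D4:**
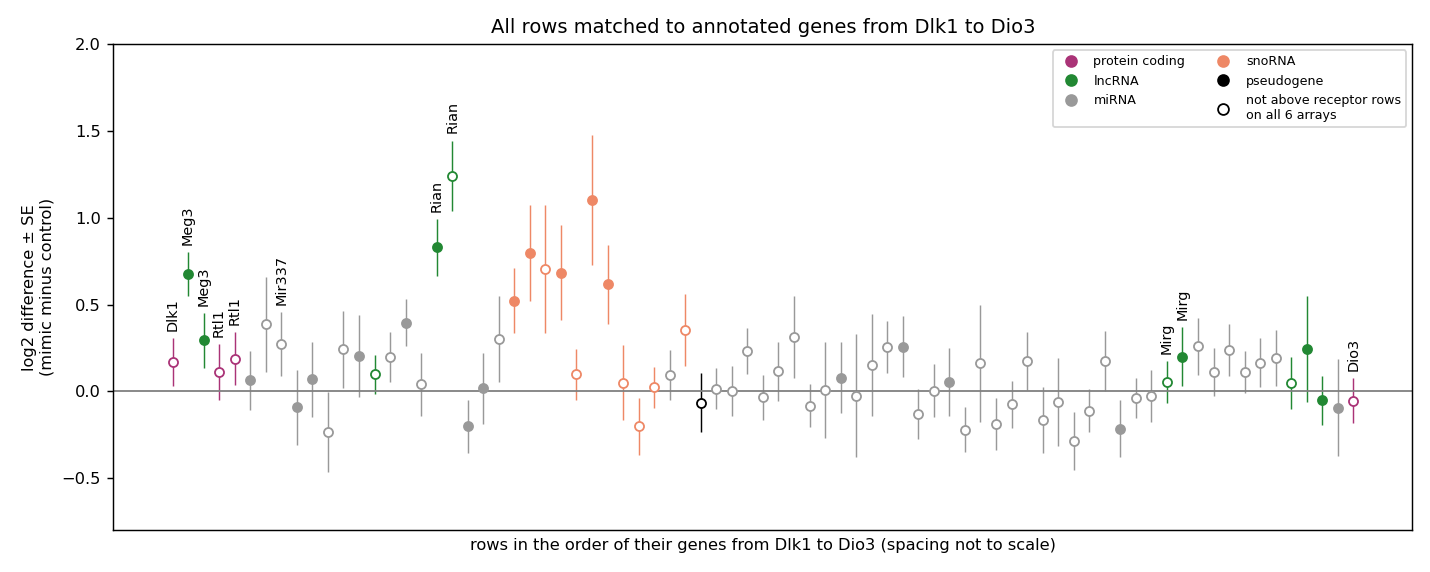
Log2 difference between mimic and control, with limma's SE (y axis), of the 77 rows matched to 72 of the 103 annotated genes from Dlk1 to Dio3, in gene order with spacing not to scale. Colours give the gene type, open points are rows that did not exceed the receptor rows on all 6 arrays, and the members are named. The Rian rows and the small nucleolar RNA rows just after them stand at up to 1.24 and 1.10.

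Dlk1 encodes a surface protein of the Notch ligand family. Its row 17278647 read 4.56, 4.81 and 4.75 in control and 5.03, 4.89 and 4.71 in mimic samples. The groups overlapped and the level was near that of the receptor rows, with 2 of 3 arrays above their 95th percentile in each group. The log2 difference was 0.17 (SE 0.14, 95% interval -0.15 to 0.48, adjusted p = 0.720 in limma). A hepatoblast marker by its known role, Dlk1 was the 1 of the 17 markers that did not exceed the receptor rows throughout.

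Rtl1, a gene derived from a retrotransposon and needed in the placenta, had rows 17550486 and 17283958. The first read 4.98, 4.58 and 4.64 in control and 4.76, 5.07 and 4.92 in mimic samples, and the groups overlapped (difference 0.19, SE 0.15, adjusted p = 0.716 in limma). The second read 3.80, 3.76 and 3.76 against 4.22, 3.69 and 3.73, and its difference of 0.11 (SE 0.16, adjusted p = 0.878) rested on mimic replicate 1, with -0.06 without that array. A row named 6430411K18Rik, annotated to Mir127, Mir433 and Rtl1, had a difference of 0.10 (SE 0.11, adjusted p = 0.831). Rtl1 overlaps Meg3, Mir337 and Rian in the RefSeq gene table, and which strand a row reads is not given here, so signals in the shared stretches are uncertain.

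Dio3 encodes the deiodinase that inactivates thyroid hormone. Its row 17278890 read 4.09, 4.05 and 4.14 in control and 4.19, 3.87 and 4.05 in mimic samples, the 1 member row below 0 at -0.05 (SE 0.13, 95% interval -0.35 to 0.24, adjusted p = 0.935 in limma). No array reached the 95th percentile of the receptor rows. The antisense gene Dio3os, which exceeded the receptor rows on all arrays, had differences of 0.25 (SE 0.31) and -0.05 (SE 0.14) in its 2 rows, with adjusted p of 0.847 and 0.947.

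The neighbours of the region had 1 gene higher and 1 lower of 19 measured, in limma, against 1.74% and 1.57% of all genes with a row each. Degs2, an enzyme of sphingolipid synthesis, read 7.28, 6.70 and 7.42 in control and 5.15, 5.23 and 5.51 in mimic samples, and fell by 1.84 (SE 0.20, adjusted p = 0.00541). It passed in every fit without 1 array. Evl, an actin regulator, rose from 8.31 ± 0.05 to 8.97 ± 0.06 (SD, 3 arrays per group), by 0.66 (SE 0.12, adjusted p = 0.0226), but missed the threshold whichever array was left out (adjusted p from 0.0603). The block brought the counts to 3 higher and 2 lower, where it called 4.5% of all genes higher and 3.72% lower, adding Traf3, a signalling adaptor, at 0.58 (adjusted p = 0.0676 without it), Mok, a protein kinase, at 0.63 (0.162 without it), and Wars, a transfer RNA synthetase, at -0.62 (0.452 without it). The median of these neighbours was 0.09.

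A list of 22 genes for imprint and chromatin marks holds factors that maintain DNA methylation and others that lay it down, remove it or belong to Polycomb. Of these, 18 had a log2 difference above 0, where 53.9% of all genes did, and their median was 0.24, with the median gene at 0.02. Of the 22, 2 rose and 0 fell by limma, and under the block 5 rose and 0 fell. Over all genes 1.74% were higher and 1.57% lower, and under the block 4.5% and 3.72%. Trim28, the corepressor that ZFP57 recruits to methylated imprint control elements, read 9.27, 9.33 and 9.61 in control and 10.24, 10.08 and 10.32 in mimic samples, and it rose by 0.81 (SE 0.14, adjusted p = 0.0229). Setdb1, the histone methyltransferase that TRIM28 brings along, rose from 7.54 ± 0.12 to 8.19 ± 0.13 (SD, 3 arrays per group), by 0.65 (SE 0.13, adjusted p = 0.0399). Zfp57 itself read 7.62, 7.75 and 7.28 in control and 8.26, 8.10 and 8.27 in mimic samples, 0.66 higher with groups that did not overlap (SE 0.15, adjusted p = 0.0595 in limma, or 0.0362 under the block).

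The maintenance methyltransferase gene Dnmt1 and its partner Uhrf1 stood 0.87 and 1.03 higher, with groups that overlapped in both. Their adjusted p-values were 0.127 and 0.151 in limma, and 0.0173 and 0.0221 under the block. The chromatin remodeller gene Atrx stood at 0.47 (adjusted p = 0.0927). The 4 genes below 0 were Tet2 at -0.58, Suz12 at -0.35, Eed at -0.20 and Tet3 at -0.17. Suz12 had groups that did not overlap (adjusted p = 0.210 in limma), and Tet2 had an adjusted p of 0.471. Trim28 passed without control replicate 3 or mimic replicate 2 and in none of the other 4 fits that left out an array, and Setdb1 in none of the 6 (up to 0.159). Dnmt1 and Uhrf1 passed without mimic replicate 3 and in none of the other 5 such fits.

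**Figure D5:**
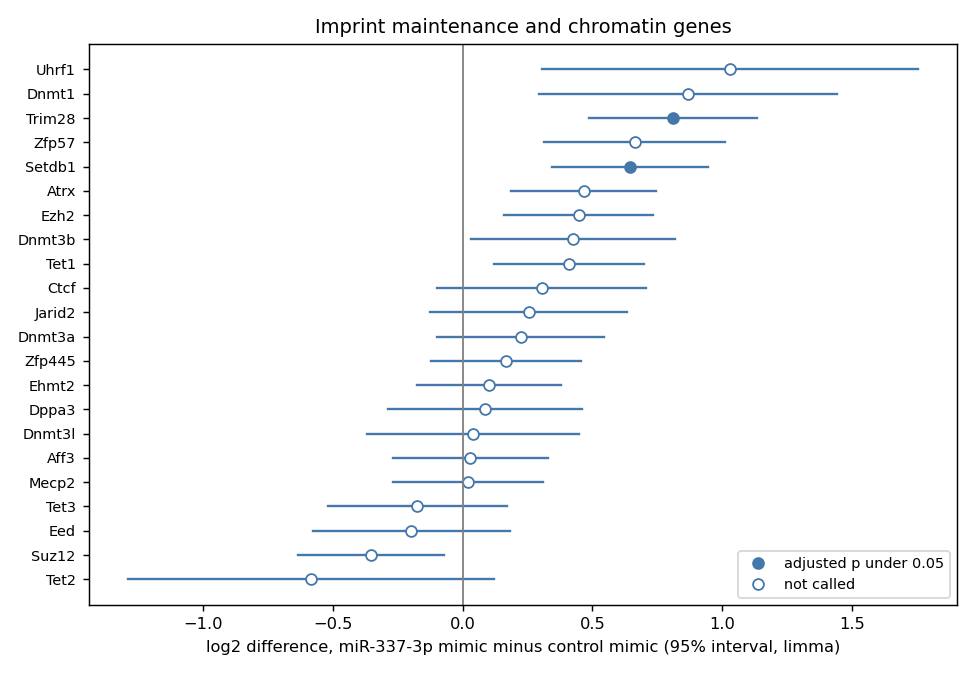
Log2 difference between miR-337-3p mimic and control mimic (x axis) with 95% limma intervals for 22 genes that maintain or remodel imprint and other chromatin marks. Filled points, Trim28 and Setdb1, had an adjusted p under 0.05, and 18 of the 22 points lie above 0.

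By likeness over the 6 arrays, the genes nearest to the brighter Rian row, among 1421 genes that varied at least as much, were Nexn, Adssl1, Itga5, Tcf7l1 and Rin2. Their Pearson correlations with it ran from 0.996 to 0.998 over 6 arrays, which include the difference between the groups. Genes chosen in this way rise with the Rian row by construction. Their tests below are descriptions and no independent support. Nexn, an actin-binding protein gene, rose by 1.15, Itga5, the fibronectin receptor subunit, by 0.97, and Tcf7l1, a repressor of Wnt targets, by 1.26 (adjusted p = 0.0358, 0.0309 and 0.0140 in limma). Adssl1, an enzyme of purine synthesis, rose by 1.19 and Rin2, a regulator of endocytosis, by 1.16 (adjusted p = 0.0192 and 0.0127). Tcf7l1 passed in all 6 fits without 1 array and Rin2 in 5, the exception being the fit without control replicate 1. Nexn, Itga5 and Adssl1 passed in 2 such fits, without control replicate 2 or mimic replicate 1. For the brighter Meg3 row the nearest of 7536 genes included Apol7c, Krtap6-2, Mkrn3 and Eddm3b, at 0.944 to 0.972. None of these passed the test (adjusted p from 0.372 to 0.541 in limma). Their group means, from 3.18 to 4.84, were near background, where the receptor rows' 95th percentile was 4.66 to 5.05. Their likeness to Meg3 is therefore uncertain.

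The authors' deposited table, which gives an ANOVA per row, lists ratios of 1.80 and 2.16 for the Rian rows and 1.61 for Meg3 row 17278662. Its p-values for them were 0.00894, 0.00753 and 0.00136, and its FDR p-values 0.217, 0.206 and 0.141, so no member passes 0.05 there. Of the 34471 rows, 5 in the authors' deposited table have an FDR p-value under 0.05, 0.0145% of them. The Mirg, Dlk1, Rtl1, Dio3 and Mir337 rows have FDR p-values from 0.700 to 0.910 in the authors' deposited table.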

How the data were processed

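Total RNA of 6 BMEL samples was labelled for Affymetrix arrays, per the labels' protocols. The sources used here do not give the array design, software or normalization. Deposited were log2 signals, 1 per transcript cluster and array, taken as normalized by the authors. The authors' comparison table gives, per the file headers, log2 averages, a signed fold change (a score), a linear ratio, and ANOVA and FDR p-values. Its IDs joined 34471 of 41345 rows, and its symbols name the genes.

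Groups were compared with limma 3.58.1 (lmFit, eBayes) in R 4.3.3 on the deposited log2 signals of every joined row, with Benjamini-Hochberg adjustment over all 34471. The script was tested on simulated data. Rows of 1 gene were compared by exact permutation over arrays. Lists used the brightest row of each gene, 30942 in all. Tables were handled with pandas 2.3.3 and scipy 1.17.1. Sequences came from RefSeq on GRCm38.p6.

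The members, lists and tests were chosen with earlier results of these data known. Named were all member rows, up to 4 genes per list with the smallest p and any called, and the 5 genes most like Rian and Meg3. A few genes that this rule names are not reported here. Dnmt1, Uhrf1, Tet2, Suz12, Eed, Tet3, Wars and the mesenchymal and blood markers were named after their values were seen. Groups share replicate numbers 1 to 3. Deviations from group means correlated, for arrays that share a number, at 0.436, 0.375 and 0.438, which points to pairing by number, though the labels do not state it. Values are from the unpaired fit, and the block is an alternative. Alternatives were the block, other eBayes options, a filter on dim rows, 2 other normalizations, other sets of rows, the authors' FDR p-value and leaving out each array. The number of arrays limits the precision.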

Additional observations from a re-analysis of the deposited data

How the results depend on the processing

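With the replicate number as a block, the count of called rows rose from 1067 to 2697, which held all 1067, and the same 3 member rows passed. The 3 also passed with trend and robust eBayes, without dim rows and after quantile normalization, and 2 passed with arrays centred on their medians, where the brighter Rian row missed (adjusted p = 0.0736 in limma). With all rows of the value table tested, 486 rows and 1 member row passed, the dimmer Rian row. With 1 row per gene, 1 member row passed, the brighter Rian row, since that setting holds 7 of the 11 rows. By the authors' deposited FDR p-value, 5 rows and 0 member rows passed. Leaving out 1 array left from 0 to 2 member rows and from 309 to 655 rows in all, fewest without control replicate 1, in fits that hold fewer samples by construction. Without both arrays of replicate 1, chosen after the data were seen, 48 rows and 0 member rows passed. The log2 differences of the Meg3 and Rian rows that passed stayed above 0 in all of these settings. Signs that turned were those of Rtl1 row 17283958 (-0.0456 without both arrays of replicate 1, -0.0426 by the authors' deposited ratio, and from -0.0592, without mimic replicate 1, to 0.2076 over the fits without 1 array) and of Dio3 (from -0.1323 to 0.0293, without mimic replicate 2). The difference between the Rtl1 rows, -0.08, ran from -0.3237 to 0.0963, without mimic replicate 2, over the fits without 1 array. The cause of these turns was not tested. The rows that passed kept their call in 5 of 14 alternatives for Meg3 row 17278662, 7 of 15 for the brighter and 9 of 14 for the dimmer Rian row, and in the others they missed the threshold. The 4 rows over the receptor rows on every array numbered 6 at the 90th percentile and 4 after quantile normalization.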

Other observations

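Of 18 genes of thyroid hormone handling, on which Dio3 acts, 8 had a log2 difference above 0 and 10 below, with a median of -0.05 against 0.02 over all genes. Ttr, the carrier of thyroid hormone in plasma, read 8.41, 8.60 and 7.84 in control and 7.17, 7.29 and 6.74 in mimic samples, and fell by 1.22 (SE 0.22, adjusted p = 0.0292 in limma). The coactivator gene Ncoa1 stood at -0.76 (adjusted p = 0.162, or 0.0324 under the block). Ttr passed without control replicate 3 and in none of the other 5 fits that left out an array (up to 0.119).

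Of 41 imprinted genes outside the region, 1 was higher and 1 lower in limma, near the 1.74% and 1.57% of all genes, and the median was 0.06. Nnat, an imprinted membrane protein gene, read 6.08, 6.22 and 6.06 in control and 6.85, 6.78 and 6.68 in mimic samples, and rose by 0.65 (SE 0.12, adjusted p = 0.0307). H19, a maternally expressed noncoding RNA, read 6.92, 6.59 and 5.70 in control and 4.63, 5.25 and 4.86 in mimic samples, and fell by 1.49 (SE 0.30, adjusted p = 0.0388). Mimic replicate 1 lay below the receptor rows' 95th percentile of 5.05 on that array, so the size of the fall is uncertain. Its direction was opposite to that of Rian, which is read from the maternal copy as well, and the difference between them was not tested. Blcap, within whose intron Nnat lies, stood at 0.48 (adjusted p = 0.0679) and the zinc finger gene Peg3 at 0.53 (adjusted p = 0.109), and with the block 3 rose and 2 fell, where it called 4.5% of all genes higher and 3.72% lower. Nnat was lost without any 1 array (up to 0.124), and H19 passed only without control replicate 3 (up to 0.127).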
